A study of Mus musculus with 8 samples.

Results

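Astrocytes secrete proteins that tell neurons where to build, mature or remove synapses. This account follows 8 of the genes for such factors through the nuclei of mouse primary visual cortex (V1): the thrombospondins Thbs1, Thbs2, Thbs3 and Thbs4, the matricellular pair Sparcl1 (hevin) and Sparc, the bone morphogenetic protein (BMP) antagonist Chrdl1, and the growth factor gene Tgfb2. The genes were chosen by name, with earlier results of these data known, and all 8 were found among the 26711 features of the count table. Their levels are given in CPM, the unique molecular identifiers (UMIs) of the gene per 1000000 UMIs of the same library and cell type.

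All mice were GRfl/fl, carrying loxP sites in Nr3c1, the gene of the glucocorticoid receptor (GR), and were collected at postnatal day 21. At birth they received an AAV2/5 vector whose GfaABC1D promoter, active in astrocytes, drives Cre together with a membrane-targeted EGFP (GR-KO), or its counterpart with the inactive recombinase ΔCre (GR-Con). They were then raised under a normal light cycle (NR) or in chronic darkness (DR). Each of the 4 groups held 2 libraries, 1 from a male and 1 from a female mouse, so p-values measure the spread between single animals and a difference within 1 rearing compares 2 libraries with 2.

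Thrombospondins bind the calcium channel subunit α2δ-1 (Cacna2d1) on neurons and promote structurally formed but silent synapses. Hevin links adhesion proteins across the cleft and stabilises thalamocortical inputs, and SPARC opposes hevin. Chordin-like 1 sequesters BMPs and drives the switch to mature AMPA receptors at excitatory synapses, and TGF-β2, secreted in a latent form bound to Ltbp proteins, acts through the receptors Tgfbr1 and Tgfbr2 and SMAD proteins.

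The start regions of 3 genes that the comparisons below turn on are shown first, as a description of their letters. The study divided astrocyte GR sites into promoter and distal ones, and distal sites lie outside the bases shown here. RefSeq promoters of build GRCm38.p6, 300 bases each from 250 before to 50 after the transcription start, were on hand for 5 of the 8 genes (Sparc, Tgfb2, Thbs2, Thbs3 and Thbs4). Sparc is shown because it was lower in GR-KO astrocytes, with the short GR motif AGAACA, or TGTTCT on the other strand, in capitals. Thbs2 and Tgfb2 are shown because they were higher in DR neurons, with the short SMAD motif CAGACA, or TGTCTG, in capitals.
Sparc, chr11:55420031-55420330, minus strand: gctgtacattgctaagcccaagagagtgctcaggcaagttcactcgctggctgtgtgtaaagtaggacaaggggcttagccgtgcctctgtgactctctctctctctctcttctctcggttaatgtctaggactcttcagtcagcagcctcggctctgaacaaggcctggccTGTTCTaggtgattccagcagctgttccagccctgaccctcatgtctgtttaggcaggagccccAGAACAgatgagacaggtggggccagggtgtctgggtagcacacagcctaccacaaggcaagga
Tgfb2, chr1:186705940-186706239, minus strand: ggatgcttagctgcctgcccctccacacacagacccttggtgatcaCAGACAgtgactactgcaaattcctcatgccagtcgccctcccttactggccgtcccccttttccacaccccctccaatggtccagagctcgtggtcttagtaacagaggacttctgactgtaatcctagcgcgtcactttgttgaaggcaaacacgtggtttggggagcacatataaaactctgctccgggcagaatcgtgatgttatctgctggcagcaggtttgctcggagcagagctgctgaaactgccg
Thbs2, chr17:14694213-14694512, minus strand: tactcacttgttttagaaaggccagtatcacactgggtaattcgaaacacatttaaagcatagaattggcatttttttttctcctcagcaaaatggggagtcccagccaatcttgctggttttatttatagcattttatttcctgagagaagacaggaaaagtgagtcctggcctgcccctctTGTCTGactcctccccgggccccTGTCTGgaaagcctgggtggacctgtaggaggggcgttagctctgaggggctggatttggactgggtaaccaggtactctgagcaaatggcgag
The Sparc promoter held 2 copies of the short GR motif, beginning 78 and 14 bases before the start, and was the only 1 of the 5 to hold it. That motif occurred on either strand in 19.0% of 32851 RefSeq promoters of this length, so its presence is common. The full palindrome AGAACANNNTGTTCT was in none of the 5 and in 3 of the 32851. The SMAD motif was in Sparc (left in lower case above), Tgfb2, Thbs2 and Thbs4 and in 21.04% of all promoters. Sparc and Thbs4, which hold it too, were called lower in DR in some neuron types. Neither the AP-1 motif TGACTCA (5.20% of all promoters) nor the cAMP response element TGACGTCA (1.79%) was in any of the 5, the NFI motif TTGGCA (14.1%) was in Thbs2 and Thbs3, and TATAAA (13.6%) was in Tgfb2 and Thbs2. These matches describe letters only. By GENCODE vM21 on GRCm38 the gene bodies of the 3 lie at chr11:55394500-55423183 (Sparc), chr1:186622792-186705989 (Tgfb2) and chr17:14665500-14694235 (Thbs2), all on the minus strand, and the RefSeq start of Sparc lies within its GENCODE gene body.

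The table held 102330 nuclei in 20 deposited cell types, of which 9486 were astrocytes (924 to 1794 per library). Astrocyte nuclei had library medians of 4889 to 12123.5 UMIs. All 7 astrocyte marker genes were highest in astrocytes. Cre UMIs were found in astrocytes of every GR-KO library (43 to 86) and in none of the GR-Con libraries. The feature named delCre did not separate the genotypes, at 2.51 to 4.79 CPM in GR-Con and 2.68 to 6.96 CPM in GR-KO astrocytes. Nr3c1 itself was at 207 to 263 CPM in GR-Con and 268 to 284 CPM in GR-KO astrocytes, so all 4 GR-KO libraries were above all 4 GR-Con libraries. Where its UMIs lie relative to the deleted part was not tested, so this level is no check of the deletion. By the study's methods nuclei were sorted as negative for GFP, which the vector targets to the membrane, and a Cre, EGFP or delCre UMI was seen in 944 of the 9486. Microglia numbered only 2, 4 and 4 nuclei in the NR GR-Con male, NR GR-KO male and DR GR-Con female libraries, against 573 to 948 in the other 5. The DR GR-Con male library stood apart among the DR libraries in several neuronal values below. Of all nuclei 2.4% shared a barcode sequence with a nucleus of another library.

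**Figure D1:**
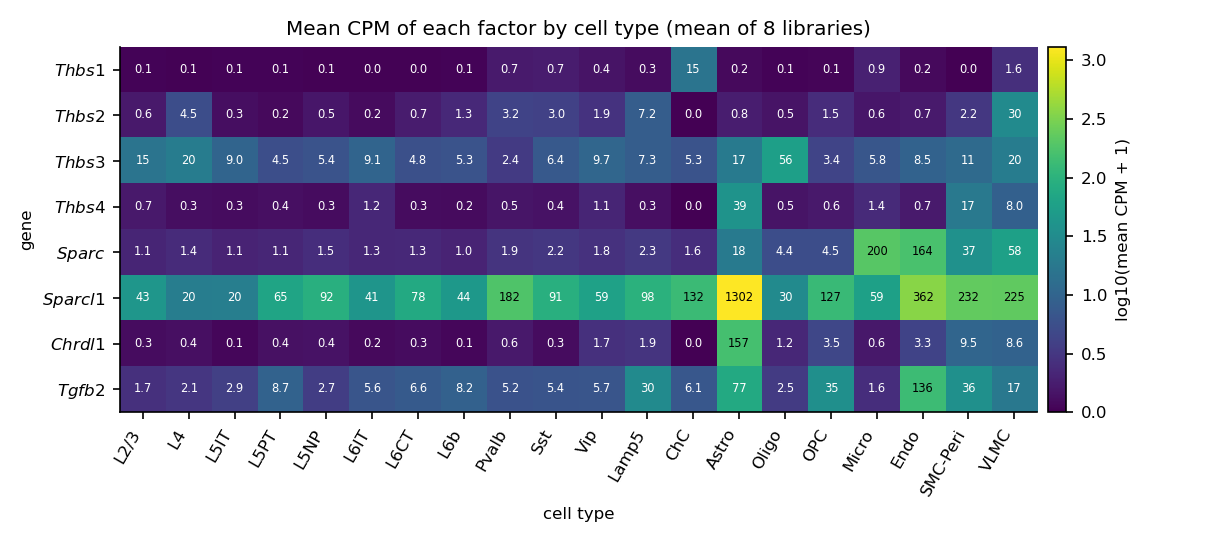
Heat map of the mean CPM of each gene (rows) in the 20 cell types (columns), with the mean of 8 libraries printed in each cell and colour on a log10(mean CPM + 1) scale. Sparcl1, Chrdl1 and Thbs4 had their highest level in astrocytes (1302, 157 and 39.1 CPM), Sparc in microglia, Tgfb2 in endothelial cells, Thbs3 in oligodendrocytes, Thbs2 in vascular leptomeningeal cells (VLMCs) and Thbs1 in chandelier cells.

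Of the 8 genes, 3 had their highest level in astrocytes: Sparcl1, Chrdl1 and Thbs4. The other 5 were highest elsewhere, and Thbs1 and Thbs2 had few UMIs in astrocytes, at most 4 and 11 in a library. In the heat map of levels by cell type each row is read on its own, since levels of different genes were not corrected for length.

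Sparcl1 (chr5:104079111-104113733, minus strand) was at 1302 ± 98.2 CPM in astrocytes (SD, n = 8 libraries), and its lowest astrocyte library (1177 CPM) lay above the highest library of every other type. Endothelial cells followed at 362 ± 107 CPM, smooth muscle cells and pericytes at 232 ± 116 CPM and VLMCs at 225 ± 95.0 CPM, and these 3 ranges overlapped. Among neurons parvalbumin interneurons were highest, at 182 ± 19.7 CPM. Interneurons as a class were at 123 ± 10.9 CPM and excitatory neurons at 43.3 ± 7.68 CPM. After each nucleus was thinned to 2000 UMIs, 89.5% ± 1.90 of astrocyte nuclei held a Sparcl1 UMI, against 3.99% ± 0.904 of L4 nuclei (unthinned 98.7% of astrocyte nuclei, median depth over libraries 5926.75 UMIs in astrocytes and 18374.5 in L4). Sparcl1 was thus detected in nearly every astrocyte nucleus.

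Sparc, its structural relative, had a different distribution. Microglia were highest at 200 ± 48.1 CPM (179 ± 17.9 CPM over the 5 libraries with at least 10 microglia nuclei) and endothelial cells followed at 164 ± 44.4 CPM, with overlapping ranges. VLMCs were at 58.2 ± 20.7 CPM and smooth muscle cells and pericytes at 36.9 ± 31.1 CPM. Astrocytes ranked 5 of 20 at 18.4 ± 14.2 CPM, with a range from 4.92 to 47.8 CPM. Excitatory neurons were at 1.22 ± 0.520 CPM.

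Chrdl1 (chrX:143285674-143394262, minus strand) had 92.6% of its UMIs in astrocytes. Its astrocyte level was 157 ± 30.9 CPM, with no overlap with the next type, smooth muscle cells and pericytes at 9.49 ± 11.8 CPM (10 UMIs in all). Excitatory neurons were at 0.287 ± 0.106 CPM. After thinning, 21.9% ± 4.23 of astrocyte nuclei held a Chrdl1 UMI and 0.0229% of L6IT nuclei did (unthinned 45.9% of astrocyte nuclei, with median depths of 5926.75 and 19954.5 UMIs).

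Tgfb2 was highest in endothelial cells (136 ± 39.9 CPM) and second in astrocytes (77.1 ± 9.92 CPM). Endothelial cells were above astrocytes in 8 of 8 libraries although the ranges overlapped, and astrocytes did not overlap with smooth muscle cells and pericytes (35.8 ± 15.3 CPM). Oligodendrocyte precursor cells (OPCs) were at 34.6 ± 7.09 CPM and Lamp5 interneurons at 29.7 ± 5.74 CPM, which did not differ beyond their spread. Excitatory neurons as a class were at 3.54 ± 0.749 CPM.

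Thbs4 (chr13:92751590-92794818, minus strand) had 71.6% of its UMIs in astrocytes, at 39.1 ± 25.5 CPM, with a range from 7.70 to 82.5 CPM. The next type, smooth muscle cells and pericytes, reached 17.1 CPM on 7 UMIs from 1 library, and the other 7 libraries were at 0. Thbs3 (chr3:89215180-89226837, plus strand) was broad and led by oligodendrocytes at 55.6 ± 7.63 CPM, above L4 neurons (19.6 ± 1.94 CPM) with no overlap. L4 neurons, VLMCs (19.5 ± 5.62 CPM) and astrocytes (17.5 ± 2.50 CPM) did not differ beyond their spread.

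Thbs2 was led by VLMCs at 30.2 ± 22.6 CPM (87 UMIs), followed by Lamp5 interneurons (7.24 ± 2.89 CPM) and L4 neurons (4.47 ± 2.01 CPM). L4 neurons nonetheless held 54.1% of its UMIs, in 19022 nuclei. L2/3 neurons were more, at 21913 nuclei, but their level was lower (means of 0.575 CPM in NR and 0.705 CPM in DR, against 3.02 and 5.92 CPM in L4). In astrocytes Thbs2 did not exceed 1.49 CPM. Thbs1 (chr2:118111876-118127133, plus strand) had only 272 UMIs in the whole table. Its highest mean, 14.8 ± 9.44 CPM, was in chandelier cells and rested on 20 UMIs in 70 nuclei, and in 6 of 8 libraries it was above VLMCs. In astrocytes Thbs1 was at or below 0.474 CPM in every library, where 3 UMIs correspond to 0.259 to 0.549 CPM, so its astrocyte level was around the detection limit.

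Setting GR-KO beside GR-Con asks which of these factors depend on the receptor in astrocytes. Of the 8 genes 6 passed the filter on low counts, and Thbs1 and Thbs2 were not tested. Sparc was the only 1 of the 6 called (adjusted p under 0.05, likelihood ratio test) in either rearing, and it was lower in GR-KO. In NR 7.11% of 14493 tested genes were called, and 3.37% of the tested genes were called lower, and in DR 0.736% of 14139 were called and 0.502% called lower. Over both rearings, with rearing as a term, 4.79% of 14754 genes were called and 2.91% called lower.

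In GR-Con astrocytes Sparc was at 47.8 (male) and 17.9 (female) CPM in NR and at 19.7 (male) and 28.0 (female) CPM in DR. In GR-KO astrocytes it was at 14.8 (male) and 4.92 (female) CPM in NR and at 5.86 (male) and 8.49 (female) CPM in DR. All 4 GR-KO libraries lay below all 4 GR-Con libraries, as did 3.85% of tested genes. The GR-KO mean was 8.52 CPM, against 28.3 CPM for GR-Con.

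Sparc had a log2 fold change of -1.81 in NR (SE 0.52, adjusted p 0.011) and -1.68 in DR (SE 0.32, adjusted p 1.2e-04). Over both rearings it was -1.75 (SE 0.37, adjusted p 1.3e-04), and this call held by the quasi-likelihood test (adjusted p 0.029, 2.85% of genes called) and by DESeq2 (0.0095). Each SE was computed as the size of the fold change over the square root of that gene's test statistic. Within 1 rearing it depended on the tool and on single libraries. The quasi-likelihood test gave adjusted p 0.081 in NR and 0.23 in DR, and DESeq2 gave 0.49 and 0.0040. Leaving out the NR GR-Con male, the NR value was -0.96 (adjusted p 0.38), without the DR GR-KO male the DR value was -1.43 (0.83) and without the DR GR-KO female it was -2.01 (0.078). Over both rearings it stayed called without each library in turn, at -2.11 to -1.40.

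Several other values moved with Sparc. Within each genotype its highest astrocyte libraries were those with under 10 microglia nuclei, at 28.0 and 47.8 CPM in GR-Con and at 14.8 CPM in GR-KO. In libraries with at least 10 microglia nuclei the 2 GR-Con values were 17.9 and 19.7 CPM and the 3 GR-KO values 4.92 to 8.49 CPM. In those 5 the log2 fold change was -1.64. That set was chosen after seeing the data and leaves out the libraries highest in Sparc of each genotype. Its spread is therefore smaller by selection, and no p-value is read from it. The 4 microglia markers summed to 17.9 to 20.7 CPM in GR-Con and 18.8 to 25.6 CPM in GR-KO astrocytes, none of them at 0, and the 4 endothelial markers to 3.88 to 8.35 and 3.06 to 9.01 CPM. The 3 OPC markers did move with genotype, from 30.7 to 54.3 CPM in GR-Con to 76.0 to 130 CPM in GR-KO, while OPCs themselves held Sparc at 1.98 to 6.29 CPM. Their part in the Sparc result was not tested. In L2/3 neurons of the same libraries Sparc was at 0.805 to 1.53 CPM in GR-Con and 0.462 to 1.90 CPM in GR-KO.

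Astrocyte nuclei were also split by whether they held a vector UMI, as a description. In GR-Con Sparc was at 65.5, 22.2, 37.6 and 34.7 CPM in nuclei with such a UMI (NR male, NR female, DR male, DR female) and at 46.0, 17.6, 18.6 and 26.9 CPM in those without. In GR-KO it was at 12.02, 3.44, 7.91 and 7.66 CPM in nuclei with one and at 15.4, 5.13, 5.53 and 8.57 CPM in those without. The nuclei with a vector UMI were thus higher in 4 of 4 GR-Con and 1 of 4 GR-KO libraries, on 5 to 43 Sparc UMIs a library.

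**Figure D2:**
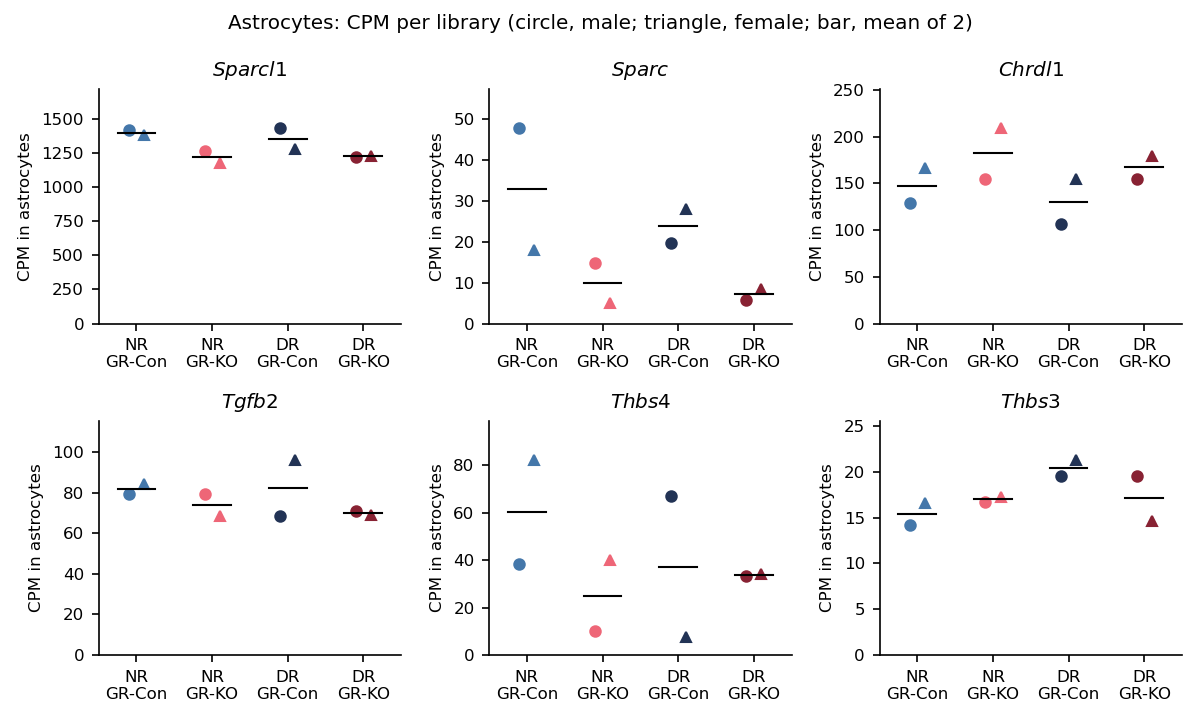
CPM in astrocytes (y axes, from 0) of the 6 tested genes in each library, by group on the x axes, with circles for males, triangles for females and bars for the mean of 2. Sparc in GR-KO (4.92 to 14.8 CPM) lay below GR-Con (17.9 to 47.8 CPM), and Thbs4 ran from 7.70 to 82.5 CPM over the 8 libraries.

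Sparcl1 went the same way by a smaller step that was not called. It was at 1422 and 1383 CPM in NR GR-Con, 1435 and 1281 CPM in DR GR-Con, 1264 and 1177 CPM in NR GR-KO and 1224 and 1230 CPM in DR GR-KO (male, then female). The 4 GR-KO libraries again lay below the 4 GR-Con libraries, as they did for 3.85% of tested genes. The log2 fold change over both rearings was -0.20 (SE 0.11, adjusted p 0.45, quasi-likelihood 0.28). It was -0.27 in NR (adjusted p 0.44) and -0.12 in DR (adjusted p 1.00). The NR value became called with sex as a term, in a fit with 1 library per genotype and sex. The 7 astrocyte markers summed to 14565 and 13806 CPM in NR GR-Con and 11559 and 11899 CPM in NR GR-KO, against 13246 and 12368 CPM in DR GR-Con and 12772 and 13842 CPM in DR GR-KO. The 4 neuron markers were at 547 and 418 CPM in NR GR-Con and 854 and 898 CPM in NR GR-KO astrocytes, and their part in the Sparcl1 values was not tested.

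Chrdl1 had its higher mean in GR-KO. It was at 128, 167, 107 and 154 CPM in the GR-Con libraries (NR male, NR female, DR male, DR female) and at 155, 209, 154.5 and 180 CPM in the GR-KO libraries in the same order, so the genotypes overlapped. The log2 fold change over both rearings was 0.31 (SE 0.17, adjusted p 0.42). This value was called only under some alternatives: with sex as a term (0.31, adjusted p 0.035) and in the 5 libraries with microglia (0.48), a set chosen after seeing the data. In DR the value was 0.39 and not called. With each library left out in turn it ran from 0.17 to 0.65, the latter without the DR GR-Con female library. Of these 4 fits, each with a lone library in a group, 1 was called.

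Tgfb2 was at 68.7 to 96.4 CPM in the 4 GR-Con and 68.4 to 79.7 CPM in the 4 GR-KO libraries, with a log2 fold change of -0.21 over both rearings (SE 0.13, adjusted p 0.51). In DR it was -0.21 and became called without the DR GR-Con male library (-0.41, adjusted p 0.022). Thbs3 was at 14.2 to 21.3 CPM in GR-Con and 14.6 to 19.6 CPM in GR-KO (-0.09, SE 0.15, adjusted p 0.92). Both genes therefore overlapped between genotypes.

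Thbs4 varied widely between the libraries of 1 group. It was at 38.2 and 82.5 CPM in NR GR-Con, 10.2 and 40.0 CPM in NR GR-KO, 66.9 and 7.70 CPM in DR GR-Con and 33.1 and 34.1 CPM in DR GR-KO (male, then female). The log2 fold change was -1.32 in NR (SE 0.55, adjusted p 0.15), -0.15 in DR (SE 0.79, adjusted p 1.00) and -0.74 over both rearings (SE 0.60, adjusted p 0.72). The last ran from -1.20 to -0.22 with each library left out in turn (adjusted p up to 0.99). It became called only without the DR GR-Con female library (-1.20, adjusted p 0.016). It was also called in the 5 libraries with microglia (-1.04), a set chosen after seeing the data. That set leaves out the GR-Con libraries at 38.2 and 7.70 CPM and the GR-KO library at 10.2 CPM. Single libraries decided its direction in DR, which was 2.18 without the DR GR-Con male and -0.99 without the DR GR-Con female library, both called (adjusted p 6.2e-23 and 1.1e-11, with the lone library assumed to vary like the others). In NR the fold change was -1.78 without the NR GR-Con male and -2.65 without the NR GR-KO female, but -0.65 without another library. With sex as a term the NR value became called (-1.41). That fit rests on 1 library per genotype and sex, so its p-value says little about the spread between animals.

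**Figure D3:**
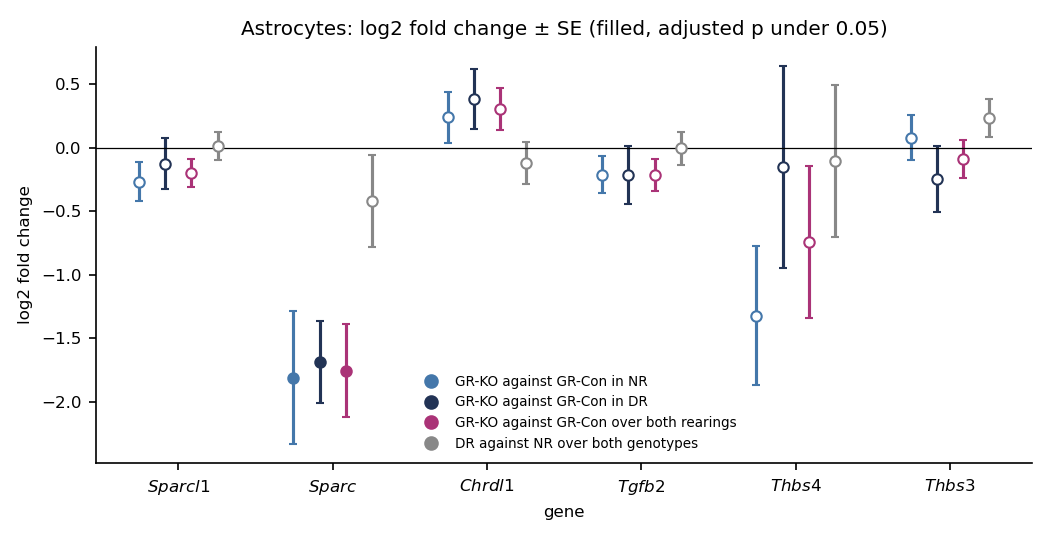
Log2 fold change in astrocytes (y axis) with its SE (bars) for the 6 tested genes (x axis) in 4 comparisons, filled where the adjusted p was under 0.05. The 3 filled points are those of Sparc, at -1.81, -1.68 and -1.75.

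None of the 6 tested genes was called in astrocytes between rearings. This held between DR and NR in GR-Con (0.147% of 14252 genes called), in GR-KO (2.85% of 14490) or over both genotypes (0.935% of 14754), and none had an unadjusted p under 0.05 in these 3 comparisons or was called by the quasi-likelihood test. Over both genotypes the fold changes ran from -0.42 for Sparc (SE 0.36) to 0.24 for Thbs3 (SE 0.15), with Sparcl1 at 0.02 (SE 0.11), Tgfb2 at -0.00 (SE 0.13), Thbs4 at -0.10 (SE 0.60) and Chrdl1 at -0.12 (SE 0.17). Thbs3 in GR-Con was above in both DR libraries (19.6 and 21.3 CPM against 14.2 and 16.6 CPM), with a fold change of 0.39 and adjusted p 1.00. The difference of the genotype effect between rearings was not called for any of the 6 by either test, and none had an unadjusted p under 0.05 (interaction, 0.386% of 14754 genes called). Taken as NR minus DR, that of Sparc was -0.12 (SE 0.75) and that of Thbs4 -1.19 (SE 1.15).

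The Thbs4 level came from few nuclei. At least 2 Thbs4 UMIs were found in 452 of the 9486 astrocyte nuclei, and the share ran from 1.01% in the DR GR-Con female library to 8.11% in the NR GR-Con female library, not thinned for depth. After thinning to 2000 UMIs the share with any Thbs4 UMI ran from 1.11% to 9.52% over the libraries (2.52% to 13.5% unthinned). Within NR GR-KO the share with at least 2 Thbs4 UMIs, not thinned, was 2.16% (male) and 7.65% (female), at median astrocyte depths of 8662 and 12123.5 UMIs. The 2 libraries with the lowest share, DR GR-Con female and NR GR-KO male, also had the lowest Thbs4 levels.

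These nuclei were compared with the 8738 astrocyte nuclei that had no Thbs4 UMI, within each library, as a description and with no test. Gfap, the intermediate filament of fibrous and pial astrocytes, was at 371 ± 214 CPM in them against 67.0 ± 36.9 CPM, and Aqp4, the endfoot water channel, at 268 ± 80.3 against 142 ± 38.0 CPM, both higher in 8 of 8 libraries. Chrdl1 was at 32.4 ± 23.7 against 164 ± 33.2 CPM and lower in 8 of 8 libraries. The glutamate transporter Slc1a3 (2103 against 2870 CPM) and Aldoc (137 against 230 CPM) were also lower in 8 of 8, while the astrocyte markers Gja1 (203 against 142 CPM) and Aldh1l1 (216 against 159 CPM) were higher in 7 of 8. Sparcl1 was at 1197 ± 267 against 1305 ± 98.3 CPM and higher in 2 of 8 libraries, Tgfb2 at 67.2 against 77.1 CPM and higher in 2 of 8, and Sparc at 17.3 against 18.7 CPM although higher in 5 of 8. Nuclei rich in Thbs4 thus held less Chrdl1 and more Gfap than other astrocyte nuclei of the same library.

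Among all genes, chosen after their values were seen, Veph1 (74.7 against 3.39 CPM), Shroom3 (110 against 7.89 CPM) and Ahnak (85.3 against 7.52 CPM) had the largest folds upwards among those at 50 CPM or more in the Thbs4 nuclei and higher there in 8 of 8 libraries. Scel (2.18 against 53.9 CPM), Trpm3 (233 against 1940 CPM) and Lef1 (18.3 against 142 CPM) had the largest downwards among those at 50 CPM or more in the other nuclei. In nuclei with a vector UMI Thbs4 was lower in 6 of 8 libraries (mean 19.3 against 41.0 CPM) and Chrdl1 in 7 of 8 (135 against 160 CPM).

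**Figure D4:**
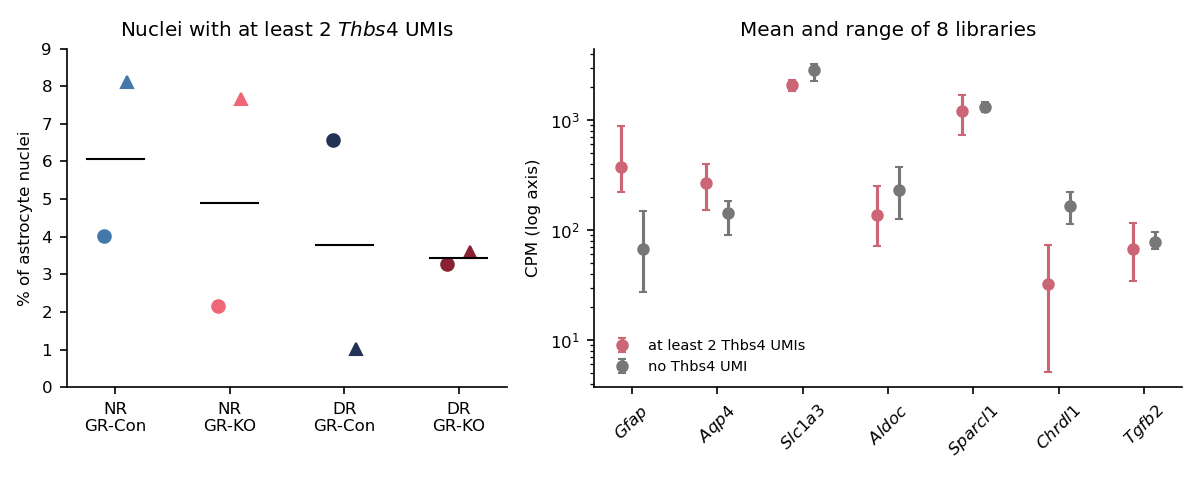
Left, percent of astrocyte nuclei with at least 2 Thbs4 UMIs (y axis) per library and group (circles, males; triangles, females; bars, mean of 2), from 1.01% to 8.11%. Right, CPM on a log axis (points, mean; bars, range of 8 libraries) of 7 genes in those nuclei and in nuclei with no Thbs4 UMI: Gfap and Aqp4 lay higher and Chrdl1 lower in the Thbs4 nuclei.

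Outside astrocytes, the genotype comparisons called almost nothing. In NR 0 of 70 gene and cell type pairs tested were called and in DR 0 of 60, by edgeR's likelihood ratio test or its quasi-likelihood version (5 and 6 had an unadjusted p under 0.05). Over all cell types, astrocytes included, 0.804% of gene and cell type pairs were called in NR, 0.513% in DR and 0.4% over both rearings. Of the 1810 pairs called in NR, 1030 were in astrocytes, so the share outside them was lower still. With so low a share, 0 calls in 70 or 60 pairs is no result about these genes. Over both rearings 1 of 73 was called, Thbs4 in L4 neurons, where 0.127% of 18131 genes were called. It was lower in GR-KO, at 0.136 against 0.465 CPM (-1.78 on the log2 scale, SE 0.42, adjusted p 0.022) on 2 to 46 UMIs a library, and was not called by the quasi-likelihood test (adjusted p 0.54). No pair of any type was called in the interaction by edgeR's likelihood ratio test, its quasi-likelihood version or DESeq2 (of 79 tested, 8 had an unadjusted p under 0.05, and 0.181% of all pairs were called).

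Between rearings several of these genes were called in excitatory neurons. Over both genotypes 10 of 73 pairs outside astrocytes were called, 6 higher and 4 lower in DR, where 5.24% of all gene and cell type pairs were called. By the quasi-likelihood test it was 4, against 3.3% of all pairs. All 6 of the higher pairs were in L2/3, L4 and L6CT neurons. In GR-Con alone 2 pairs were called (background 2.25%) and in GR-KO alone 8 (background 3.66%).

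Tgfb2 rose in L6CT neurons, the corticothalamic cells of layer 6. It was at 4.70, 5.52, 4.17 and 3.94 CPM in the NR libraries (GR-Con male, GR-Con female, GR-KO male, GR-KO female) and at 6.69, 7.87, 9.92 and 9.84 CPM in the DR libraries in the same order. Each DR library was above all NR libraries, as were 8.36% of tested genes. The fold change was 0.91 (SE 0.18, adjusted p 4.1e-05), where 12.5% of 16730 genes were called and 6.49% were higher. In GR-KO alone it was 1.30 (SE 0.18, adjusted p 1.2e-09, background 6.94%), and in GR-Con alone 0.51 and not called (SE 0.22, adjusted p 0.28). Both calls held by the quasi-likelihood test (adjusted p 0.016 and 0.040, with 9.97% of genes called over both genotypes), by DESeq2 and without each library in turn.

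Thbs2 rose in L4 neurons, the main target layer of visual thalamus. The NR libraries were at 3.34, 2.89, 2.50 and 3.33 CPM and the DR libraries at 3.29, 6.96, 5.79 and 7.65 CPM, in the same order. The DR GR-Con male library thus lay among the NR libraries and the other 3 DR libraries lay above them. In GR-Con alone, where only the DR female library lay above both NR libraries, the difference was not called. The log2 fold change over both genotypes was 1.00 (SE 0.25, adjusted p 0.0023, quasi-likelihood 0.041, with 7.35% of genes called), where 9.6% of 18131 genes were called and 4.72% higher, and it was 1.22 without the DR GR-Con male library. In GR-KO alone it was 1.27 (adjusted p 9.8e-05, quasi-likelihood 0.059, background 5.48%) and not called without the DR GR-KO female library (1.02, adjusted p 0.10).

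Thbs3 and Sparcl1 rose in both L6CT and L2/3 neurons. In L6CT, Thbs3 was at 3.53 to 3.98 CPM in the 4 NR and 4.35 to 6.60 CPM in the 4 DR libraries (log2 fold change 0.58, SE 0.16, adjusted p 0.0064, quasi-likelihood 0.035). Sparcl1 was at 67.7 to 74.7 CPM in NR and 79.5 to 92.9 CPM in DR (0.28, SE 0.09, adjusted p 0.015, quasi-likelihood 0.021). Neither gene overlapped between rearings there, where every DR library was above every NR library for 8.36% of tested genes and 12.5% were called. Thbs3 lost its call without the NR GR-Con male or the DR GR-KO male library, and Sparcl1 without any of 6 libraries (adjusted p up to 0.097). Within 1 genotype only Thbs3 in GR-KO was called (0.68, adjusted p 0.013, quasi-likelihood 0.091), and not without 2 of the 4 libraries (adjusted p up to 0.44). In GR-Con Thbs3 was at 0.48 (adjusted p 0.61), and Sparcl1 was at 0.31 in GR-Con (adjusted p 0.47) and 0.25 in GR-KO (0.35). Markers of other cell types in L6CT neurons were lower in DR: the astrocyte markers summed to 922 to 1066 CPM in NR and 707 to 911 CPM in DR, the microglia markers to 13.9 to 16.7 and 11.8 to 13.2 CPM and the endothelial markers to 7.55 to 8.84 and 5.502 to 6.84 CPM. Their part in the L6CT results, that of Tgfb2 included, was not tested. The astrocyte marker sum differed by neuron type in the same libraries, at 79.9 to 164 CPM in L5PT and 1089 to 1270 CPM in L6b neurons. How much of it was the neurons' own RNA was not tested.

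In L2/3 neurons Sparcl1 was at 36.9, 30.2, 40.7 and 31.2 CPM in NR and 35.1, 58.9, 54.8 and 52.1 CPM in DR, in the same order, with the DR GR-Con male library again among the NR values. The log2 fold change was 0.53 (SE 0.17, adjusted p 0.016, quasi-likelihood 0.052), where 15.9% of 18793 genes were called and 7.63% higher. It was 0.67 without that library, and the call was lost without any of 5 libraries (down to 0.39, adjusted p up to 0.11). In GR-KO alone it was 0.62 (adjusted p 0.011, quasi-likelihood 0.065, background 8.55%), not called without any of 3 of the 4 libraries (adjusted p up to 0.33), and in GR-Con alone 0.44 (adjusted p 0.44). Thbs3 was at 10.5 to 16.1 CPM in NR and 14.0 to 17.7 CPM in DR (0.38, SE 0.14, adjusted p 0.040, quasi-likelihood 0.060), and it lost its call without any of 6 libraries. In GR-Con alone the difference was 0.59 (adjusted p 0.0035, background 7.45%), lost without 2 of the 4 libraries (adjusted p up to 0.36), and in GR-KO alone it was 0.19 and not called (adjusted p 0.66). Sparcl1 was also higher in L5PT neurons of GR-KO (82.0 and 89.8 against 57.6 and 51.8 CPM, 0.66, adjusted p 0.016, quasi-likelihood 0.25, background 1.73%).

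**Figure D5:**
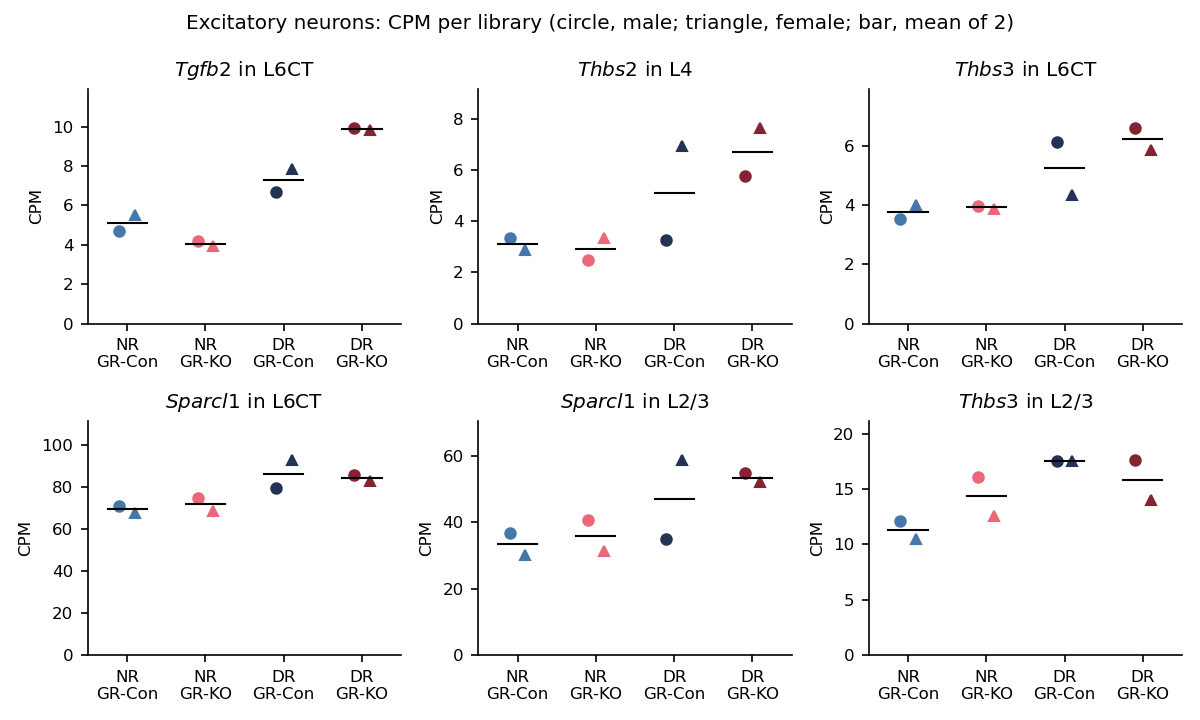
CPM (y axes, from 0) of Tgfb2, Thbs2, Thbs3 and Sparcl1 in excitatory neuron types, by library and group, with circles for males, triangles for females and bars for the mean of 2. In L6CT neurons the 4 DR libraries lay above the 4 NR libraries for Tgfb2, Thbs3 and Sparcl1, and in L4 neurons Thbs2 did so in 3 of 4 DR libraries.

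The lower calls were at low levels. Sparc was lower in DR in L5PT neurons (0.586 against 1.70 CPM, -1.48, adjusted p 0.0083, background 3.79%, 1.93% lower) and in oligodendrocytes (3.06 against 5.79 CPM, -0.93, adjusted p 0.040, background 3.82%, 1.46% lower), and in GR-KO alone in L6IT neurons (-1.77, adjusted p 0.0048, background 5.58%) and L5PT neurons (-1.85, adjusted p 0.026). In GR-KO L6IT neurons the microglia markers were at 15.2 and 15.3 CPM in DR and 16.6 and 29.0 CPM in NR. The endothelial markers there were at 6.38 and 6.56 against 7.28 and 7.57 CPM. In GR-KO L5PT neurons the endothelial markers were at 9.19 and 8.32 against 11.3 and 10.4 CPM, while the microglia markers overlapped. Their part in the Sparc values was not tested. Thbs4 was lower in L4 (-1.31, adjusted p 0.024, background 9.6%) and L6CT neurons (-1.55, adjusted p 0.022, background 12.5%), with means of 0.174 against 0.427 CPM and 0.135 against 0.401 CPM. These 2 calls rested on 2 to 46 UMIs a library in L4 and 1 to 25 in L6CT. Each was lost without any of 5 of the 8 libraries (adjusted p up to 0.22 and 0.27). Thbs2 was also called in Sst interneurons of GR-Con (1.61 against 4.55 CPM, -1.49, adjusted p 0.035, background 0.725%) and, higher, in VLMCs of GR-KO (54.1 and 66.8 against 13.8 and 22.3 CPM on 5 to 20 UMIs, 1.40, adjusted p 0.015, background 19.9%). None of these was called by the quasi-likelihood test. The Sparc call over both genotypes was lost without any of 7 of the 8 libraries in oligodendrocytes and any of 4 in L5PT neurons. In GR-KO alone it was lost without any of the 4 libraries in L5PT and 2 of the 4 in L6IT neurons. The L5PT values of GR-KO rested on 5 to 31 Sparc UMIs a library, with 59 nuclei in the NR female. The Thbs2 calls were lost without any of the 4 libraries in Sst interneurons and 3 of the 4 in VLMCs.

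The receptors and partners of the factors had their highest levels in several cell types. Cacna2d1, the thrombospondin receptor, was highest in Lamp5 interneurons (1875 ± 215 CPM) and ranked 17th of 20 types in astrocytes (127 ± 21.6 CPM). The BMP receptors Bmpr1a and Bmpr1b were highest in astrocytes (280 ± 22.9 and 641 ± 66.0 CPM), while the ligands Bmp6 and Bmp7 were highest in VLMCs (1338 ± 767 and 157 ± 68.0 CPM). The TGF-β receptors Tgfbr1 and Tgfbr2 were highest in microglia (2237 ± 438 and 475 ± 183 CPM) and at 42.8 and 21.6 CPM in astrocytes. Ltbp1, which holds latent TGF-β, and Itgb8, an integrin subunit that activates it, were highest in OPCs (275 and 160 CPM) and second in astrocytes (142 and 120 CPM).

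In astrocytes these partners and relatives were tested in the same fits, as 6 lists. Of the thrombospondin partners 8 of 9 were tested, and in NR 1 was higher and 1 lower in GR-KO, where 7.11% of all genes were called. Itgav, an integrin subunit that binds latent TGF-β, fell from 183 to 111 CPM (-0.79 on the log2 scale, SE 0.14, adjusted p 7.5e-07) and was also lower over both rearings (-0.76, adjusted p 1.8e-07). Cacna2d1 rose from 96.0 to 145 CPM in NR (0.52, SE 0.14, adjusted p 0.0052). In DR it was at 141 and 146 CPM in GR-Con and lower, at 129 and 123 CPM, in GR-KO, which was not called, and it was not called over both rearings. Both NR calls held by the quasi-likelihood test (adjusted p 0.0023 and 0.017). The medians of this list were 0.11 in NR and -0.06 in DR, against 0.00 and -0.01 over all genes.

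Of the 5 hevin and SPARC partners 4 were tested and none was called in any of the 7 comparisons by the likelihood ratio test, with medians of 0.26 in NR and 0.08 in DR. Of the 14 BMP genes 12 were tested and none was called between genotypes (medians 0.17 in NR and 0.12 in DR, with 7.11% and 0.736% of all genes called). Between rearings Bmp7 was lower in DR in GR-KO (18.0 against 32.9 CPM, -0.79, adjusted p 4.2e-04, quasi-likelihood 0.017, background 2.85%), with GR-Con at 27.1 and 40.5 CPM in DR and 27.7 and 28.4 CPM in NR. Id3, a BMP target, was higher in DR over both genotypes by the likelihood ratio test but not the quasi-likelihood test (0.42, adjusted p 0.029, quasi-likelihood 0.13, background 0.935%). Of the 18 TGF-β genes 15 were tested in NR and 16 in DR, with genotype medians of 0.00 and 0.13. Itgav, given above, was called between genotypes only and was lower in GR-KO. Between rearings Ltbp1 was higher in DR in GR-KO (175 against 125 CPM, 0.56, adjusted p 0.0035, quasi-likelihood 0.020, background 2.85%) and over both genotypes (0.50, adjusted p 0.044, quasi-likelihood 0.20, background 0.935%). The OPC markers in the same astrocytes were also higher in DR, at 130 and 123 against 76.0 and 96.1 CPM in GR-KO and 53.0 and 54.3 against 30.7 and 32.4 CPM in GR-Con, and their part in the Ltbp1 result was not tested.

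Of 13 relatives of the factors 8 were tested in NR and 2 were higher in GR-KO, where 7.11% of all genes were called in either direction. They were Spock3 and Spock1, both SPARC-related proteoglycans. Spock3 was at 0.66 (adjusted p 0.011, quasi-likelihood 0.063), though at 13.8 and 24.6 CPM in DR GR-Con against 12.3 and 16.3 CPM in DR GR-KO. Spock1 passed both tests (36.2 against 18.1 CPM, 0.94, SE 0.21, adjusted p 2.7e-04, quasi-likelihood 0.020) in NR and only the likelihood ratio test over both rearings (0.75, adjusted p 0.0093, quasi-likelihood 0.071), with the DR GR-Con female at 33.0 CPM beside a lowest GR-KO value of 33.2 CPM. The list's medians were 0.04 in NR and -0.11 in DR. Over both rearings Bmper, a BMP-binding protein, was higher by the likelihood ratio test but not the quasi-likelihood test (83.5 against 50.4 CPM, 0.70, adjusted p 0.029, quasi-likelihood 0.12, background 4.79%). So was Smoc1, a matricellular relative of SPARC, in DR against NR over both genotypes (25.7 against 18.1 CPM, 0.54, adjusted p 0.0057, quasi-likelihood 0.11, background 0.935%). Spock1 was highest in L5IT neurons (919 CPM) and lowest of the 20 types in astrocytes, and genes enriched in neurons took 4.27% and 4.47% of astrocyte UMIs in NR GR-KO against 3.01% and 2.88% in NR GR-Con. The part of that share in the Spock1 and Cacna2d1 results was not tested. Of 8 other secreted astrocyte factors 7 were tested and 3 were higher in NR (7.11% of all genes were called, in either direction), where the list's median was 0.08 (-0.03 in DR). Markers of other types were also higher in NR GR-KO astrocytes. From GR-Con to GR-KO the oligodendrocyte markers went from 118 and 97.7 to 170 and 133 CPM. The OPC markers went from 30.7 and 32.4 to 76.0 and 96.1 CPM, and the neuron markers from 547 and 418 to 854 and 898 CPM. Their part in these 3 results was not tested. Ptn, which encodes the growth factor pleiotrophin, rose from 960 to 1641 CPM (0.71, SE 0.19, adjusted p 0.0038), and over both rearings by 0.66 (adjusted p 3.5e-04). Il33, an alarmin that engages microglia in synapse remodelling, rose from 22.7 to 52.6 CPM (1.14, SE 0.26, adjusted p 4.4e-04, quasi-likelihood 0.031). Over both rearings it was 0.89 and passed the likelihood ratio test but not the quasi-likelihood test (adjusted p 0.021 and 0.12), with the DR GR-Con male at 50.5 CPM within the GR-KO range of 37.5 to 67.8 CPM. The axon guidance gene Sema3a was the other (9.51 against 5.52 CPM, 0.72, adjusted p 0.035, quasi-likelihood 0.10), and in GR-KO it was lower in DR (-0.95, adjusted p 0.0083, quasi-likelihood 0.059), so that in DR it was at 4.76 and 4.59 CPM in GR-KO and at 8.27 and 5.81 CPM in GR-Con. In DR no gene of the 6 lists was called between genotypes. The difference of the genotype effect between rearings (interaction) was not called for any tested gene of these lists.

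By their pattern over the 20 cell types the 8 genes kept different company, measured as Pearson's r of log2(mean CPM + 1) among 11105 genes with at least 20 CPM in some type. The types share libraries and depth, so these values are a description. The genes most like Chrdl1 were Ccdc190 (0.98), Plcd4 (0.97) and Cbs (0.97), all highest in astrocytes. Thbs4 was most like Tnc (0.92), Gm13322 (0.92) and Rbpms2 (0.92), and Sparcl1 most like Gm26703 (0.94), Msi2 (0.90) and Ndrg2 (0.89). Sparc was most like Trim34a (0.98), Trim12a (0.98) and Parp14 (0.98), which peaked in endothelial cells or microglia. Tgfb2 was most like Dach1 (0.84), Tspan12 (0.83) and Epas1 (0.83), Thbs3 most like Aplp1 (0.82), Mapre2 (0.81) and Pdcd4 (0.80), Thbs2 most like Gm10785 (0.80), Slc6a20b (0.78) and Fbln5 (0.77), and Thbs1, with its few UMIs, most like Vmn1r209 (0.92), Vmn1r207-ps (0.90) and Plekhd1 (0.83), of which the first 2 belong to a gene family whose copies may share reads. Among the 8 themselves the closest pair was Thbs4 and Chrdl1 (0.90), although the nuclei richest in Thbs4 held less Chrdl1.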

How the data were processed

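Single nuclei of V1 were profiled with 10x 3′ chemistry. Per the labels and methods, the authors aligned reads to mm10 with Cell Ranger 8.0.1, removed doublets with DoubletFinder, clustered and named cells in Seurat 5.3.0, and deposited raw UMI counts per nucleus with a cell type table. No further doublet filter was applied. Library names gave group and sex but no replicate number.

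Counts were summed per library and cell type. Types with at least 10 nuclei in every library compared were tested with edgeR 4.0.16 (R 4.3.3), TMM factors, filterByExpr and the likelihood ratio test (glmLRT, the test named in the study's methods), with Benjamini-Hochberg adjustment over all genes of the type and a threshold of 0.05. The quasi-likelihood test and DESeq2 1.42.0 were alternatives. In counts simulated for astrocytes with 200 genes changed 2-fold, the likelihood ratio test recovered 79.2% of them and 14.8% of its calls were false (NR genotype comparison, 14280 genes), against 74% and 9.36% for the quasi-likelihood test. Over both rearings these were 82.5% and 14.9%, against 75.2% and 7.34% (14539 genes). For DR against NR in GR-Con they were 44% and 23.3%, against 26.3% and 13.1% (14012 genes), so calls by the likelihood ratio test alone are less certain. Total UMIs per library were 168632129 to 288774016, and 5462791 to 11585703 in astrocytes. Intervals and detection limits cover counting error only.

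The 8 members, the partner lists and the markers were chosen with earlier results of these data known. The text names all members, each called pair, list genes called in astrocytes, and the 3 genes of highest Pearson's r per member. Shares of nuclei with a UMI were thinned to 2000 UMIs, except those with at least 2 Thbs4 UMIs, which were not thinned. Promoters came from RefSeq and motifs were searched on both strands.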

Additional observations from a re-analysis of the deposited data

How the results depend on the processing

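No paired analysis was possible because the library names carry no replicate numbers. Since each group held 1 male and 1 female, a fit with sex as a term was made instead. Of 24 calls, each a gene in a cell type and a comparison, 4 stayed called under every alternative and without every library in turn: Tgfb2 in L6CT neurons (GR-KO alone and both genotypes), Thbs2 in L4 neurons (both genotypes) and Sparc in astrocytes (both rearings). The quasi-likelihood test called 7 of the 24 and DESeq2 13, and none changed sign. The number of pairs called between genotypes in NR was 1, and it was 0 by the quasi-likelihood test, 0 by DESeq2 and 4 with sex as a term. In DR it was 1, and 0 by quasi-likelihood, 2 with no filter and 2 with sex. Over both rearings it was 2, and 1 by quasi-likelihood, 1 by DESeq2 and 4 with sex. Between rearings in GR-Con it was 2, and 1 by quasi-likelihood, DESeq2, no filter or all 8 libraries in 1 model, and 5 with sex. In GR-KO it was 8, and 1 by quasi-likelihood, 3 by DESeq2 and 3 in the model of all 8. Over both genotypes it was 10, and 4 by quasi-likelihood.

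Leaving out each library in turn, with a lone library assumed to vary like the others, gave 1 to 3 calls in NR, 0 to 9 in DR, 1 to 3 over both rearings, 0 to 8 in GR-Con, 1 to 11 in GR-KO, 2 to 12 over both genotypes and 0 to 1 in the interaction. The 9 in DR came without the DR GR-Con female and the 8 in GR-Con without the DR GR-Con male library. For fits with a library left out or with sex as a term, the share of all gene and cell type pairs called is not given. Whether the counts of calls in those fits are particular to these genes was therefore not tested. In astrocytes Sparc ran from -2.79 to -0.96 in NR and from -2.01 to -1.42 in DR. In NR it was -1.86 by quasi-likelihood and -1.80 by DESeq2, and in DR -1.68 by quasi-likelihood and -1.69 in the model of all 8, none of these 4 called. Uncalled astrocyte values that changed sign were Thbs3 in NR (-0.040 to 0.20) and over both rearings (-0.16 to 0.024), Chrdl1 in NR (-0.017 to 0.45) and Tgfb2 in DR (-0.41 to 0.024). Between rearings these were Thbs4 (-0.62 to 0.36, and 0.026 with sex), Sparcl1 (-0.014 to 0.071, and -0.019 with library totals) and Tgfb2 (-0.10 to 0.083). Thbs4 between genotypes in DR ran from -0.99 to 2.18 and was 0.55 with sex. The cause of these changes was not tested. The subset of 5 libraries with microglia was chosen after seeing the data. Thbs1 and Thbs2 failed the filter in astrocytes, where a low level and limited depth were not told apart.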
